A study of Mus musculus with 15 samples.

Results

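The chromatin of 10 of 22359 protein-coding genes is described here: Six3, Tfap2a, Sox2, Mab21l1, Foxe3, Pitx3, Sox1, Maf, Prox1 and Hsf4, which were chosen by name as genes that direct the formation of the lens. For each gene, the regions of 9 ChIP-seq lists were collected in the gene body plus 50 kb on each side in the mouse genome (mm9). Chromatin immunoprecipitation followed by sequencing (ChIP-seq) finds the genomic regions that carry a protein or a histone mark. The cells were αTN4, an immortal line of mouse lens epithelium that expresses the SV40 T antigen, carrying either a control shRNA or an shRNA against Pax6 (Pax6 KD). Both were pooled populations stably infected with lentivirus, and each list has 1 library per condition in the labels. The peak names of the control H3K4me2 list hold the word bothreps, which the labels do not explain, so that this list may rest on more libraries than the others. Control cells have lists for Pax6, RNA polymerase II (Pol2), H3K4me1, H3K4me2 and H3K4me3, and Pax6 KD cells have lists for the 3 histone marks. The ninth list is H3K4me2 of whole lens from CD-1 mice at postnatal day 1, which was not divided into epithelium and fibers. One label field names the Pax6 and Pol2 antibodies the other way round, and these libraries were assigned by their titles.

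The vertebrate lens arises from surface ectoderm that thickens into a placode, sinks in as a vesicle and then divides into an anterior epithelium and elongated fiber cells that fill with crystallins. Pax6 acts from the beginning of this sequence, together with Six3, Tfap2a and Sox2. Foxe3 and Pitx3 act in the vesicle and the epithelium, and Sox1, Maf, Prox1 and Hsf4 act in the fibers. Trimethylation of lysine 4 of histone H3 (H3K4me3) marks promoters, H3K4me1 marks enhancers, and H3K4me2 is found at both. Mab21l1 is needed for the lens vesicle, and its protein has a nucleotidyltransferase fold rather than a known DNA-binding domain, so that "transcription factor" does not hold for it in a strict sense.

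A promoter is here the stretch from 2 kb before to 2 kb after the start of any protein-coding transcript of a gene, and a distal region lies at no such promoter of any protein-coding gene. Regions called by MACS2 are named peaks, and the broader H3K4me1 regions called by SICER are named islands. Fold is the enrichment over background that was deposited for each region. Folds of different libraries are not on one scale, so regions were also placed by their percentile of fold within their own list. The MACS2 lists give no read numbers, so their depth is unknown. No list gives values per replicate, so there is no replicate error, no test was run, and intervals of shares and read densities cover counting error only. Where it was counted, the same share over all genes or all regions of a list is set beside a share of the members.

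Crystallin and fiber markers were checked first. Of 9 lens markers, 2 had H3K4me2 at the promoter in αTN4 cells (Cryaa and Cryab) and 7 in newborn lens. Over all genes, promoter H3K4me2 was present at 58.2% in control cells, 57.1% in Pax6 KD cells and 66.8% in lens. Of 5 mesenchyme markers, all 5 had promoter H3K4me2 in αTN4 cells and in lens. None of 3 blood markers had it in either, while of 3 endothelial markers 1 had it in control cells, 0 in Pax6 KD cells and 2 in lens. Of 4 markers of retina and neurons, 0 had it in αTN4 cells and 3 in lens. The part of other cell types in the lens regions given here was not tested. The level of Pax6 left in the Pax6 KD cells cannot be read from these lists, and the promoter of Pax6 had a region of all 9.

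The windows of the 10 genes held 3 Pax6 peaks, 1 each at Six3, Mab21l1 and Prox1. Over all protein-coding genes, 3.48% have a Pax6 peak in such a window. The sequences of these peaks are printed because they are the places where Pax6 itself was found beside the members. They are given 5′ to 3′ on the plus strand of mm9, and the capitals mark the stretch nearest to a consensus word of the Pax6 paired domain (13 letters, 11 of them defined) on either strand within 100 bp of the summit. The Mab21l1 peak runs past the transcript start, and only its 60 bases before the start are shown.
Prox1, chr1:191983390-191983589: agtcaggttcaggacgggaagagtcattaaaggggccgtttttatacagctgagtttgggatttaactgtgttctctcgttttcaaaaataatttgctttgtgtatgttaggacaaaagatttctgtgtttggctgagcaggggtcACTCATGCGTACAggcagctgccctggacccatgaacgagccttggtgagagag
Six3, chr17:85983023-85983164: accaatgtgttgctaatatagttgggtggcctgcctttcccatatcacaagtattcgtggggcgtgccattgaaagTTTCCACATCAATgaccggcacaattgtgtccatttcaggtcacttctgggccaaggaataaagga
Mab21l1, chr3:55586372-55586431: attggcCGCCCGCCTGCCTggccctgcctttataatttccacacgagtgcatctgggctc

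The Prox1 peak held the closest match. It lies on the minus strand and matches 9 of the 11 defined letters, and its center lies 5 bp from the Pax6 summit. Among all 504 Pax6 peaks, 15.5% had a match with at most 2 mismatches within 100 bp of the summit, against 2.88% of windows of the same length lying 500 bp to either side. The best matches at Six3 and Mab21l1 had 7 of 11 letters. A match with at most 4 mismatches was present in 94.6% of summit windows and in 86.9% of the windows beside them, so that a match of this quality does not set a summit apart. A further 4 words were searched on both strands in the same windows: TGANTCA (AP-1), CATTGT (Sox), TGCTGA (one arm of the Maf site) and TGACAG (Meis). TGANTCA shares letters with the end of the Pax6 word. The only match at the 3 sites was TGACAG at Mab21l1, a word held by 13.9% of summit windows and 10.9% of side windows.

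The Pax6 peak of Prox1, the homeobox gene that drives elongation of fiber cells, had a fold of 9.36 and a −log10 q of 15.8, at percentile 82.8 of the Pax6 list. Its summit lies in an intron of Prox1, 11022 bp downstream of the transcript start. The peak lay inside a control H3K4me2 peak of 12052 bp that runs from 191982586 through the first part of the gene to the promoter, with a fold of 25.02. In Pax6 KD cells the H3K4me2 peak at this place was 11916 bp wide with a fold of 24.3. In newborn lens the site lay in an H3K4me2 peak of 3723 bp with a fold of 5.35, and a separate peak of 8978 bp (percentile 79.3) covered the promoter. No Pol2 or H3K4me3 peak overlapped the Pax6 peak. The 3 H3K4me2 lists thus hold the site. The peaks that cover it were at percentiles 98.6 in control cells, 95.1 in Pax6 KD cells and 40.01 in lens. Each percentile describes a whole peak, and the peaks of αTN4 cells also reach the promoter. The percentiles therefore do not compare H3K4me2 at the site itself between αTN4 cells and lens.

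At this Prox1 site H3K4me1 formed 1 island in control cells and 2 in Pax6 KD cells. In control cells, 1 island of 13200 bp (chr1:191978401-191991600) held 263 ChIP reads, or 19.9 per kb (95% Poisson interval 17.6 to 22.5). In Pax6 KD cells one island of 4000 bp ended at 191983000 with 57 reads, and another of 1200 bp began at 191983801 with 42 reads, together 19.0 reads per kb (15.5 to 23.2). The Pax6 peak lies in the 800 bp between them, 212 bp from the nearer island, and the part of the control island that reaches toward the promoter had no Pax6 KD island. SICER joins windows of 200 bp across gaps of up to 600 bp, and a count for the 800 bp itself was not analysed here. The Pax6 KD density covers only the 5200 bp still called, and the control density all 13200 bp. Their near equality therefore does not show unchanged H3K4me1 over the whole control island. Reads were not scaled between libraries, and the mean over all islands was 22.0 per kb in control and 19.0 in Pax6 KD cells.

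The other Pax6 peaks were weaker. At Six3, a homeobox gene of the optic region and lens placode, the peak lies between genes, 29.8 kb upstream of the first transcript start, with a fold of 5.13 and a −log10 q of 5.40 (percentile 10.2). It overlapped none of the other 8 lists. The nearest mark was a control H3K4me1 island 10.6 kb away, and the nearest H3K4me2 peaks lay 11.6 kb away in control cells, 11.6 kb in Pax6 KD cells and 12.2 kb in lens. At Mab21l1, the summit lies in an exon, 10 bp after the transcript start, with a fold of 4.75 and a −log10 q of 4.69 (percentile 6.75). That peak overlapped Pol2, H3K4me3 of both kinds of cells and all 3 H3K4me2 lists. A control H3K4me1 island of 1400 bp ended 172 bp before it, and the nearest Pax6 KD island was 73.7 kb away. The 3 Pax6 sites therefore had 3 different surroundings: an intron with H3K4me1 and H3K4me2, an unmarked intergenic site and a promoter with Pol2, H3K4me3 and H3K4me2.

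**Figure D1:**
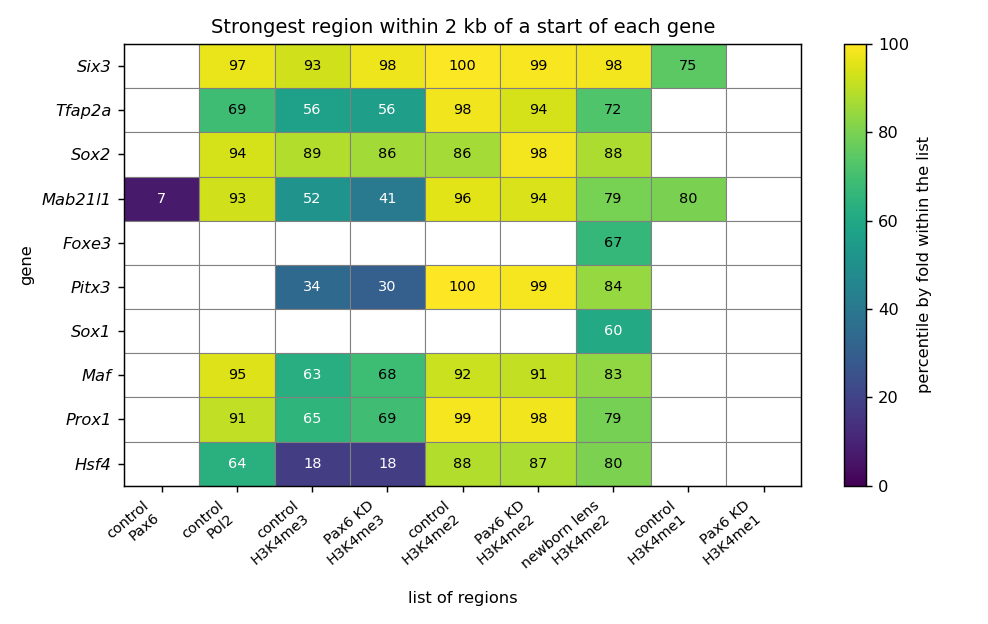
Strongest region of each of the 9 lists (columns) within 2 kb of a transcript start of each gene (rows), numbered and colored by its percentile of fold within that list, with blank cells where the list has no region. Foxe3 and Sox1 have a region only in newborn lens, Pitx3 has H3K4me2 and H3K4me3 without Pol2, and Mab21l1 alone has Pax6.

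At the promoters, 8 of the 10 genes carried H3K4me2 and H3K4me3 in αTN4 cells, and all 10 carried H3K4me2 in newborn lens. The shares over all genes were 58.2% for control H3K4me2, 49.1% for control H3K4me3 and 66.8% for lens H3K4me2. The same 8 genes had both marks in Pax6 KD cells, whereas 2.67% of all genes with control H3K4me2 and 3.18% of those with control H3K4me3 had none in Pax6 KD cells. There, the shares over all genes were 57.1% for H3K4me2 and 47.7% for H3K4me3. Pol2 was found at 7 promoters (47.9% of all genes), and a Pax6 peak at 1 (0.255%). H3K4me1 islands overlapped 2 promoters in control cells, those of Six3 and Mab21l1, and 0 in Pax6 KD cells, against 36.0% and 16.7% of all genes. Tfap2a, Sox2, Maf, Prox1 and Hsf4 shared one state, with Pol2, H3K4me3 and H3K4me2 and no Pax6 or H3K4me1, which 4037 genes have. That of Mab21l1, in which all lists but Pax6 KD H3K4me1 have a region, is shared by 20 genes.

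Foxe3 and Sox1 stood apart from the other members. Foxe3 is a forkhead factor that keeps the lens epithelium dividing, and Sox1 switches on γ-crystallin genes in fibers. Neither had a region of any of the 8 αTN4 lists at its promoter. In newborn lens, H3K4me2 covered the Foxe3 promoter with a peak of 2639 bp and a fold of 12.6 (percentile 66.8). The Sox1 promoter had a lens peak of 2128 bp with a fold of 9.48 (percentile 60.4) and a second one of 3109 bp with a fold of 6.85. Of all genes, 11.7% had promoter H3K4me2 in lens and not in control cells, which is 17.6% of the genes with it in lens, and 2284 genes have exactly the state of Foxe3 and Sox1. Sox1 has no entry under its name in the annotation used, and its start was placed at chr8:12395519 by its RefSeq promoter sequence, which occurs once in mm9. Its window is therefore 50 kb on each side of the start alone, and the start lies inside the annotated gene Gm5607. None of the 8 members with promoter H3K4me2 in control cells lacked it in lens, as 5.37% of such genes did.

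The 250 bases before the RefSeq starts of Foxe3 and Sox1 are shown because, of the members, only they had a promoter region in lens alone. This state is not particular to them, as 2284 genes have it. They are RefSeq sequences (GRCm38.p6) on the strand of the gene that occur unchanged in mm9, with every CpG in capitals.
Sox1, chr8:12395269-12395518: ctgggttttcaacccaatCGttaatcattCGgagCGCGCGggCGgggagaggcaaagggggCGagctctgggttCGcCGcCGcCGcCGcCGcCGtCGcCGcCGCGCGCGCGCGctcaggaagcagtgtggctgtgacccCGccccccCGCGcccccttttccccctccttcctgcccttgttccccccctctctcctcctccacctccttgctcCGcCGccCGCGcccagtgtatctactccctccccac
Foxe3, chr4:114598673-114598922: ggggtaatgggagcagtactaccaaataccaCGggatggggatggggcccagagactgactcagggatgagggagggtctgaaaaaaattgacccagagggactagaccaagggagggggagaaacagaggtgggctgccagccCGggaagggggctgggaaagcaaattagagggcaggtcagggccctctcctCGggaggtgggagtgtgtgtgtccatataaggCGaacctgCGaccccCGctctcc

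The CpG content of these promoters differed. Sox1 held 29 CpG in 250 bases, at percentile 94.1 of the 32851 RefSeq promoters, and Foxe3 held 6, which is also the median. Over 500 bases on each side of the start, the ratio of observed to expected CpG was 0.788 at Sox1 and 0.734 at Foxe3, between 0.553 at Mab21l1 and 0.841 at Sox2, and the median over all genes was 0.550. All 10 members were above this median, the lowest being Mab21l1 at percentile 50.3. Of the 10 genes, 7 have an entry in the RefSeq promoter table.

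Pitx3, a homeobox factor of the lens vesicle, had an intermediate state. Its promoter held the H3K4me2 peak of highest percentile among the members in control cells, with a fold of 29.3 over 2545 bp (percentile 99.8), and one of similar rank in Pax6 KD cells, with a fold of 29.5 over 2293 bp (percentile 98.7). The H3K4me3 peak there was narrow, at 693 bp with a fold of 12.1 in control cells (percentile 33.98) and 535 bp with a fold of 8.86 in Pax6 KD cells (percentile 30.0). No Pol2 peak was found at its promoter, a combination that 244 genes share. In newborn lens, H3K4me2 at the Pitx3 promoter was wider, at 5030 bp, with a fold of 22.5 (percentile 84.3). Of the members with promoter H3K4me3, Hsf4, a heat shock factor that is needed for fiber maturation, had the weakest, with 1 control peak of 259 bp and a fold of 7.55 (percentile 17.7) and 2 Pax6 KD peaks of 328 and 359 bp.

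Pol2 at the promoters of the other members ranged widely in rank. Six3, for which the annotation holds 3 starts, had 4 Pol2 peaks, the largest of 3351 bp with a fold of 31.1 (percentile 96.5). Its control H3K4me2 peaks of 7266 and 8166 bp had folds of 27.4 and 24.1, and the first lens H3K4me2 peak was 15686 bp wide with a fold of 31.1. Tfap2a, which encodes the AP-2α factor of surface ectoderm, had 5 Pol2 peaks, of which the one at its first start had a fold of 13.7. Sox2, the partner of Pax6 at lens enhancers, had a Pol2 peak with a fold of 26.7 and a control H3K4me2 peak of 11661 bp. Maf, the leucine zipper factor that activates crystallin genes, had a Pol2 peak with a fold of 28.4, and Prox1 one with a fold of 23.7. Mab21l1 had one with a fold of 25.7. The strongest promoter Pol2 peaks of Sox2, Maf, Prox1 and Mab21l1 were at percentiles of at least 90.5, that of Tfap2a at 68.8 and that of Hsf4 at 63.5. Maf and Mab21l1 each also had a weak promoter Pol2 peak, at percentiles 18.4 and 2.05. Levels are not compared between genes beyond these percentiles.

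H3K4me3 at the promoters was compared between control and Pax6 KD cells to see whether peaks were absent or changed rank. Overlap and percentile cannot show a change that the whole list shares. The fold of the strongest peak was lower in Pax6 KD cells at each of the 8 members with the mark. It was 33.6 in control and 22.4 in Pax6 KD cells at Sox2, and 7.55 and 6.65 at Hsf4. How many of all genes had a lower fold in Pax6 KD cells was not counted. A fold of 18.0 stood at percentile 51.5 of the control list, while one of 17.2 stood at percentile 68.4 of the Pax6 KD list. Folds of the 2 lists are thus not on one scale, and whether the mark itself was reduced was not tested. Of 18 control H3K4me3 peaks at the promoters of 8 members, 16 overlapped a Pax6 KD peak (88.9%, 95% Wilson interval 67.2 to 96.9), and of all control H3K4me3 peaks at promoters 8.23% did not. The 2 peaks without a counterpart were a 287 bp peak at Maf with a fold of 6.42 and a 231 bp peak at Prox1 with a fold of 5.28. Both are narrow flanking peaks at percentiles 11.5 and 5.09, and the main peaks of Maf and Prox1 were present in Pax6 KD cells. The percentile of the strongest H3K4me3 peak moved by between −10.7 points at Mab21l1 and 5.72 points at Maf. For the central 95% of the 10619 genes with the mark in both lists, the change lay between −24.997 and 21.2 points, with a median of −1.68, so that no member lay outside this range. For H3K4me2, the members' changes ran from −4.31 points at Tfap2a to 11.8 points at Sox2, within the range of −19.6 to 17.9 over 12661 genes.

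**Figure D2:**
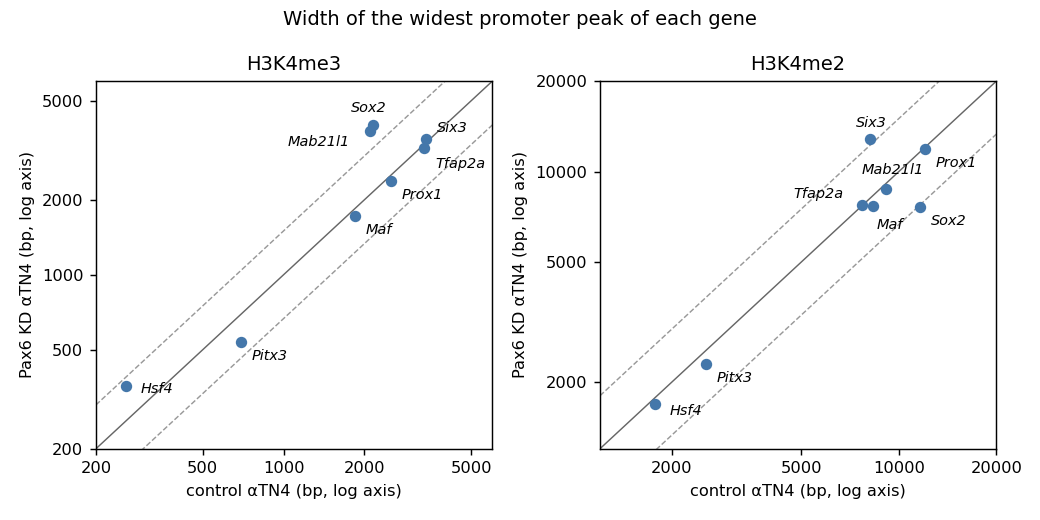
Width of the widest promoter peak of H3K4me3 (left) and H3K4me2 (right) of each gene in control (x axis, bp) and Pax6 KD αTN4 cells (y axis, bp), both on log axes. The solid line marks equal width and the dashed lines a ratio of 1.5. Sox2 and Mab21l1 lie above the dashed line for H3K4me3, as does Six3 for H3K4me2, while Sox2 lies below the lower line for H3K4me2.

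The widest H3K4me3 peak was wider in Pax6 KD cells at Sox2 and Mab21l1. At Sox2 it was 2153 bp in control and 3996 bp in Pax6 KD cells, and at Mab21l1 2103 and 3771 bp. Of all genes with the mark in both lists, 1.77% were at least 1.5 times as wide in Pax6 KD cells, and 9.29% were so in control cells, among them no member. The wider peak at Sox2 overlapped 4 control peaks with a summed width of 3726 bp, and that at Mab21l1 overlapped 3 with a summed width of 3211 bp. The length covered by H3K4me3 in the whole window was 6.83 kb in control and 7.09 kb in Pax6 KD cells for Sox2, and 4415 and 4802 bp for Mab21l1. Neighboring control peaks were thus joined into 1 peak in the Pax6 KD list, while the bases covered in the window differed by less than the width of the widest peak did. At Six3, 1 Pax6 KD H3K4me2 peak of 12790 bp stood at the place of 2 control peaks with a summed width of 15432 bp (1.41% of genes were at least 1.5 times as wide in Pax6 KD cells). At Sox2, the control H3K4me2 peak of 11661 bp overlapped 4 Pax6 KD peaks with a summed width of 11079 bp (13.8% of genes were at least 1.5 times as wide in control cells).

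Away from promoters, H3K4me1 was the mark with fewest regions kept in Pax6 KD cells. Control cells had 19 distal H3K4me1 islands in the windows, and 8 of them overlapped a Pax6 KD island (42.1%, 23.1 to 63.7). Of all distal control islands, 47.4% did so and 52.6% did not. With promoters included, 28 control islands held 2044 reads and 9 Pax6 KD islands held 636. Of these 28 control islands 9 were kept, and of all 38007 control islands 17559 were. The SICER lists themselves differ in this direction. The 38007 control islands held 3289553 reads, and the 18417 Pax6 KD islands held 1849269. Every one of the 8 distal Pax6 KD islands overlapped a control island, where over the whole list 7.53% did not.

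**Figure D3:**
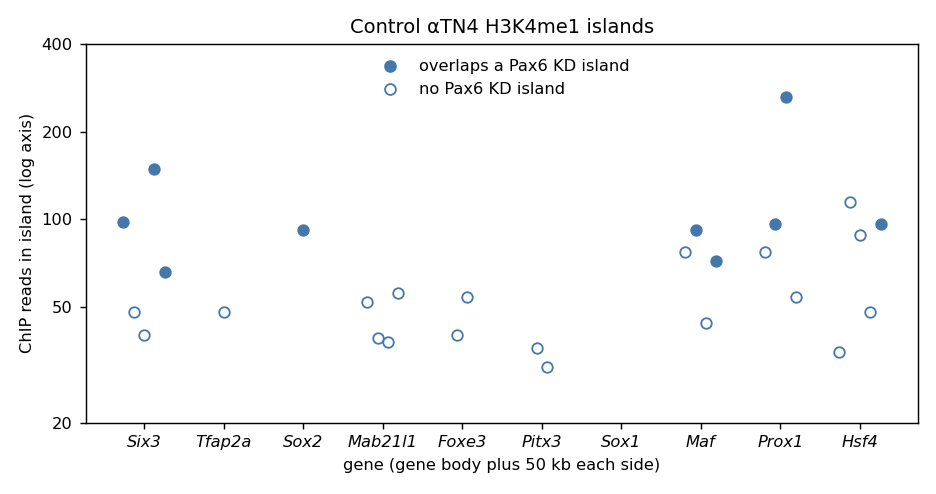
ChIP reads in each control αTN4 H3K4me1 island in the window of each gene (log axis), filled where the island overlaps a Pax6 KD island and open where it does not. Islands that were kept hold between 66 and 263 reads and those that were not between 31 and 115, and no island lies in the Sox1 window.

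The islands that were kept were the larger ones, with a median of 96 ChIP reads for 9 islands against 48 for the other 19, and the groups overlapped. Mab21l1, Foxe3, Pitx3 and Tfap2a kept none of their 9 islands, which hold 31 to 56 reads each. At Six3, an island of 4200 bp over an exon of the gene (chr17:86025001-86029200) was the densest of the 28, at 35.5 reads per kb (30.0 to 41.7). The Pax6 KD island there was 7600 bp wide and held 17.8 reads per kb (14.9 to 21.0), and it also covered a neighboring control island with 16.5 per kb. At 2.75 kb from a Six3 start, an island with 48 reads (34.3 per kb, 25.3 to 45.5) in an exon of the antisense transcript Six3os1 had no Pax6 KD island. Upstream of Six3, in contrast, the island at chr17:85993801-85998600 had 20.4 reads per kb (16.6 to 24.9) in control and 18.0 (14.1 to 22.7) in Pax6 KD cells.

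At Maf, 2 of 4 islands were kept. The one with most reads, 12.6 kb upstream (chr8:118242401-118246200), had 24.2 reads per kb (19.5 to 29.7) in control and 23.8 (18.7 to 29.7) in Pax6 KD cells, and the other kept island (chr8:118279601-118282800) had 22.5 (17.6 to 28.3) and 14.8 (11.3 to 18.9). The island with 77 reads in an intron of Maf had no Pax6 KD island. The island downstream of Sox2, in an intron of the noncoding gene Sox2ot, had 92 reads over 4600 bp (16.1 to 24.5 reads per kb) in control and 71 reads over 3600 bp (15.4 to 24.9 reads per kb) in Pax6 KD cells. Hsf4 lies in a gene-dense window with 10 other coding genes, and all 5 control islands there overlapped promoters of its neighbors. Of these, 1 was kept, and the largest that was absent held 115 reads over Nol3. Over the 9 kept islands, the log2 ratio of Pax6 KD to control reads per kb, relative to its median of −0.32 over all 17559 kept islands, had a median of 0.25 and ran from −0.68 at Six3 to 0.42 at Six3. The central 95% of all kept islands lay between −0.677 and 0.711, and the lower Six3 value, −0.683, was just outside it. These extremes are islands that share 1 Pax6 KD island. Control islands without a Pax6 KD island have no such ratio, so these values describe kept islands alone.

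Distal H3K4me2 was mostly kept. Of 24 distal control H3K4me2 peaks in the windows, 21 overlapped a Pax6 KD peak (87.5%, 69.0 to 95.7). Of all distal control peaks, 76.8% did so and 23.2% did not. In reverse, 26 of 26 distal Pax6 KD peaks overlapped a control peak, where 10.1% of the whole list did not. The 3 without a counterpart were weak: one of 217 bp near Tfap2a with a fold of 5.41, one of 589 bp in an intron of Sox2ot with a fold of 5.07 and one of 438 bp near Sox1 with a fold of 3.53. Distal H3K4me3 peaks numbered 17 in control cells, and 13 were kept (76.5%, 52.7 to 90.4). Of all distal control H3K4me3 peaks, 72.7% were kept and 27.3% were not. The 4 that were absent lay at Tfap2a and Prox1. The stronger one at Prox1 (chr1:191985150-191985648, fold 7.17) was at percentile 15.9 of the control H3K4me3 list. It lay over an exon of Prox1, 1.56 kb from the Pax6 peak. The bases covered by H3K4me2 were fewer in Pax6 KD than in control cells, whose list may pool replicates, in 10 of 10 windows, which was so for 89.4% of all gene windows with the mark. Summed over the members, the Pax6 KD cover was 0.910 of the control cover, and over the whole lists 0.855.

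**Figure D4:**
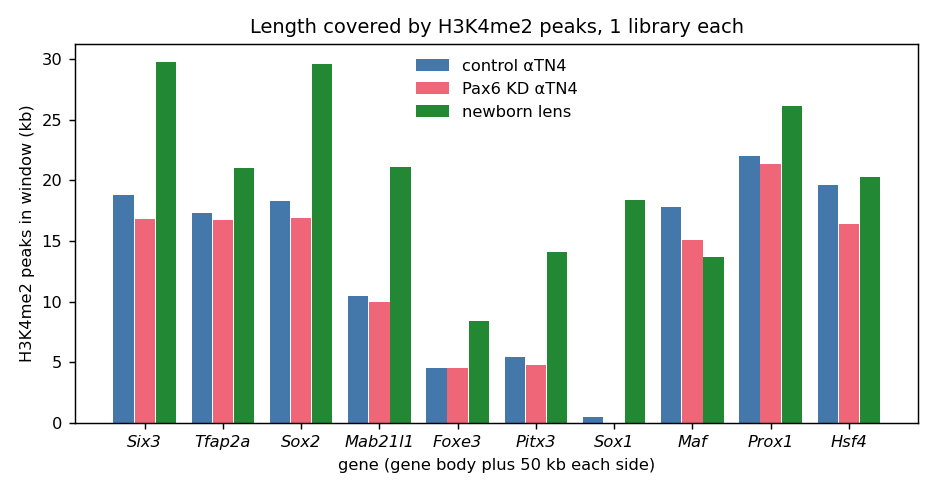
Length covered by H3K4me2 peaks (kb, y axis) in the window of each gene (x axis) in control αTN4 cells, Pax6 KD αTN4 cells and newborn lens. Lens is at least 1.5 times control at Six3, Sox2, Mab21l1, Foxe3, Pitx3 and Sox1, and Maf alone has less in lens than in control cells.

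Between the cell line and the tissue, H3K4me2 of these windows was more extensive in newborn lens. Lens peaks covered 202.5 kb of the 10 windows and control peaks 134.5 kb, a ratio of 1.51, while the control list may pool replicates. Over the whole lists the ratio was 0.793 and over gene windows the median was 0.857. In 6 of the 10 windows the lens cover was at least 1.5 times the control cover, as in 16.2% of all gene windows. For Six3 it was 29.8 kb in lens and 18.8 kb in control cells, for Sox2 29.6 and 18.3 kb, and for Mab21l1 21.1 and 10.5 kb. Foxe3 had 8.43 and 4.51 kb, Pitx3 14.1 and 5.43 kb, and Sox1 18.4 and 0.438 kb. Tfap2a, Prox1 and Hsf4 had ratios of 1.22, 1.19 and 1.03, and Maf was the only member with less in lens, at 13.7 kb against 17.8 kb. Windows include the promoters of other genes, such as Gbf1 and Elovl3 beside Pitx3 and Cmpk1 and Foxd2 beside Foxe3.

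Away from promoters, the 10 windows held 84 H3K4me2 peaks in lens and 24 in control cells, where the whole lists held 34947 and 45380. These counts depend on how peaks were split. A wide control peak that reached a promoter was not counted as distal, while separate lens peaks in the same stretch were. At Prox1, for example, a distal lens peak at 8.21 to 11.93 kb from the start lay inside the control promoter peak of 12052 bp. Of the 84, 27 overlapped control H3K4me2 (32.1%, 23.1 to 42.7), where 27.4% of all distal lens peaks did and 72.6% did not. Of the 84, 16 overlapped both H3K4me2 and H3K4me1 of control cells, 11 only H3K4me2, 11 only H3K4me1 and 46 neither. Without control H3K4me1 were thus 57 of the 84, and 71.8% of all distal lens peaks. Starting from control cells, 11 of the 24 distal peaks were shared with lens (45.8%, 27.9 to 64.9). Of all distal control peaks, 19.4% were shared and 80.6% were not. Mab21l1, Foxe3 and Sox1 shared none of their 8, 4 and 9 distal lens peaks with control H3K4me2. Prox1 shared 8 of 17, Tfap2a 7 of 14 and Maf 3 of 4.

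**Figure D5:**
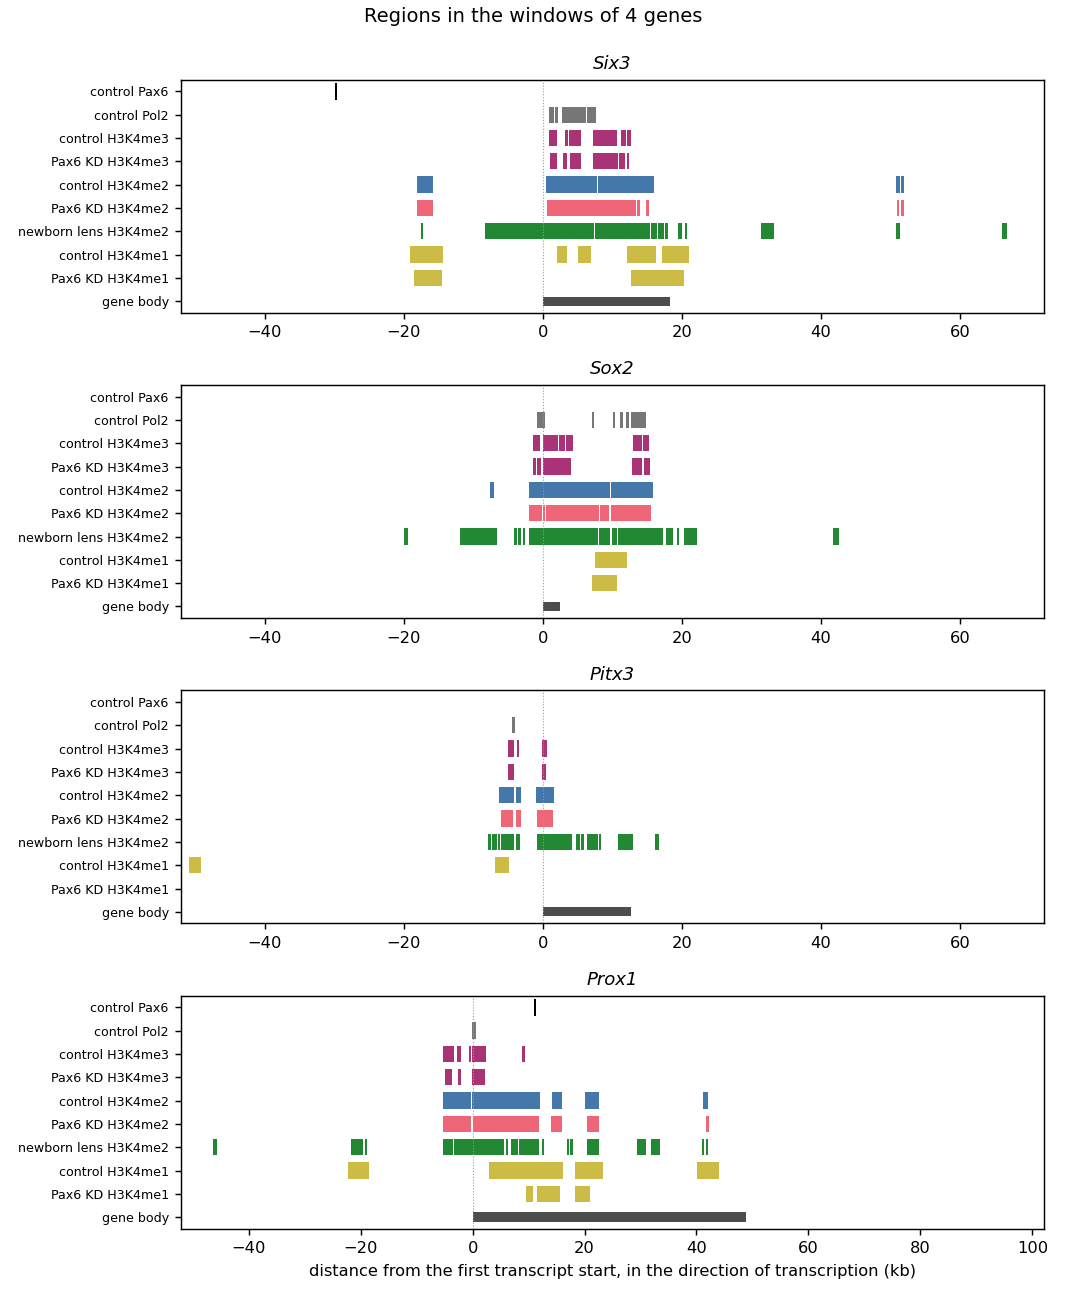
Regions of the 9 lists in the windows of Six3, Sox2, Pitx3 and Prox1, placed by distance from the first transcript start in the direction of transcription (kb, linear axis), with the gene body as a gray bar. Lens H3K4me2 extends past αTN4 H3K4me2 on the far side of Six3 and at the end of Pitx3, and the Pax6 peak of Prox1 lies over the gap between the Pax6 KD H3K4me1 islands.

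The strongest of these lens sites were found at Pitx3, Tfap2a and Sox2. The peak at the end of Pitx3, over an exon at its 3′ end (chr19:46209908-46212010), had a fold of 31.6 in lens (percentile 98.5), which is above that of the Pitx3 promoter, and no region of any αTN4 list overlapped it. At Tfap2a, a lens peak in an intron (chr13:40818449-40820015) with a fold of 29.5 lay in a place that held both H3K4me2 and H3K4me3, with or without Pax6 shRNA, and Pol2 in control cells. Downstream of Sox2, in Sox2ot, a lens peak of 6481 bp (chr3:34559688-34566168) had a fold of 26.3, and the control peak at the same place (chr3:34558715-34564746) had a fold of 24.8 and percentile 98.4. That Sox2 region, centered 12.7 kb from the start in control cells, also held 4 Pol2 peaks and 2 H3K4me3 peaks in control cells and 2 H3K4me3 peaks in Pax6 KD cells, and no protein-coding start is annotated there.

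Several further lens sites had no control H3K4me2. The strongest distal lens peak of Six3, 24.9 kb from its nearest start between genes (chr17:86044363-86046120), had a fold of 18.7, and no αTN4 list had a region there. Near Sox2, a lens peak 42.0 kb downstream (chr3:34590613-34591546) had a fold of 14.2. For Sox1, a lens peak 34.7 kb downstream (chr8:12429674-12430817) had a fold of 12.8, and for Prox1 a peak 20.7 kb upstream (chr1:192014206-192016344) had a fold of 12.1. This Prox1 peak lay in a control H3K4me1 island with 54 reads that had no Pax6 KD island. The Mab21l1 peak in an intron of Nbea, 27.4 kb upstream (chr3:55558220-55559877), had a fold of 10.0 in lens and overlapped a control H3K4me1 island with 52 reads but no control H3K4me2. That island had no counterpart in Pax6 KD cells.

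In the other direction, the distal control H3K4me2 peaks without lens H3K4me2 had folds of at most 7.24. One of them lay 33.1 kb upstream of Foxe3 between genes (chr4:114630697-114632857), at 2161 bp with a fold of 6.56 (percentile 47.3), and it was kept in Pax6 KD cells. At Maf, 5 of 6 distal control peaks had no lens counterpart, the strongest of them 49.9 kb upstream with a fold of 7.01, while the strongest distal Maf peak, 3.95 kb upstream with a fold of 19.1, was shared with lens. Prox1 had one in an intron, 15.04 kb from its start, with a fold of 7.24. The strongest distal control sites of Six3, Tfap2a, Sox2, Maf and Prox1, with folds of 14.0 to 24.8, were all found in lens and in Pax6 KD cells.

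A wider list of 24 genes, relatives and partners of the members in the lens such as Meis, Maf, Sox and AP-2 family genes, was read at promoters only. All 24 had promoter H3K4me2 in newborn lens, and 15 had it in control cells and in Pax6 KD cells, where the shares of all genes were 66.8% in lens, 58.2% in control and 57.1% in Pax6 KD cells. In control cells H3K4me3 was found at 13 and Pol2 at 15, and H3K4me1 at 7 in control and 5 in Pax6 KD cells, against 49.1%, 47.9%, 36.0% and 16.7% of all genes. The 9 genes with promoter H3K4me2 in lens and not in control cells were Six6, Sox3, Sox11, Pitx1, Prox2, Mab21l2, Tfap2b, Tfap2c and Otx2. A promoter Pax6 peak was found at 1 gene of the wider list, Pax6 itself (0.255% of all genes).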

How the data were processed

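Bowtie alignments to mm9 were made by the authors, who used MACS2 for all targets except H3K4me1, for which they used SICER (windows of 200 bp, gaps of 600 bp, FDR of 0.001). Versions, and the control library of the island lists, are not given in the sources used here. The 7 deposited MACS2 lists hold a fold enrichment (a ratio over background) and −log10 q per peak. The 2 deposited SICER lists hold read counts of ChIP and control, a fold and a p-value per island. Names of the control H3K4me2 peaks (bothreps) may mean that replicates were pooled. RNA-seq was not analysed here. Genes came from GENCODE vM1 (mm9), and sequences from mm9 and RefSeq. Starts were made 1-based, and an overlap of 1 bp counted. Python 3.11.15, pandas 2.3.3, SciPy 1.17.1 and pysam 0.24.0 were used, and the overlap code was tested on simulated regions. Shares have 95% Wilson intervals and read densities exact 95% Poisson intervals. The members and gene lists were chosen with earlier results of these data known. Named were all members, their promoter regions and Pax6 peaks, and per gene the distal region of each kind with the highest fold or most reads, also among those without a counterpart. Other sites described were chosen after their values were seen. Thresholds, overlap, window and promoter size were varied. One result on the wider gene list is not reported here.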

Additional observations from a re-analysis of the deposited data

How the results depend on the processing

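With 1 library per condition in the labels, differences between libraries in depth or enrichment cannot be told apart from differences between conditions, and the mark lists of Pax6 KD cells and lens were each called on their own. No paired analysis was possible because no test was made and each condition had 1 library. Of 65 alternative values for 17 results, 60 stayed within the limits set for no change and 5 moved. The limits were 1.5 times for counts and cover ratios, the 95% interval for shares, and −0.293 to 0.374 for the change in H3K4me1 density. This last interval was read from the ranked values of the 9 kept islands, some of which share 1 Pax6 KD island. It describes the spread over islands and gives no replicate error. Without centering, the median density change of the kept islands was −0.066 in place of 0.249, a change of sign inside that interval. Intervals of shares are wide, such as 23.1 to 63.7% for distal H3K4me1 islands. The promoter Pax6 peak of Mab21l1 was not counted at a −log10 q of at least 5, which left 0 members. Members with promoter H3K4me1 in control cells numbered 4 with promoters of 5 kb on each side and 1 with the 5′ end of the gene alone, against 2. The share of distal control H3K4me2 peaks kept in Pax6 KD cells was 62.5% (15 of 24) in place of 87.5% when at least 50% of the peak had to be covered. The share of control H3K4me2 peaks shared with lens was 76.8% (43 of 56) in place of 45.8% with promoters included. The cause of these shifts, beyond the altered rule itself, was not tested. The ratio of lens to control H3K4me2 cover, 1.51, was itself chosen after seeing the data, as were its 4 alternatives. It was 1.17 over Tfap2a, Sox2, Maf, Prox1 and Hsf4, and between 1.47 and 1.60 under the other 3.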
